A study of Drosophila mojavensis with 95 samples.

Results

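Females of Drosophila mojavensis from Organ Pipe National Monument (spelled Manument in the labels), a site that the labels place in the Sonora desert, were followed through a desiccation treatment after rearing on laboratory food made from agria cactus. The course was taken from the array titles and holds 13 of the 95 arrays of the series, with 4 arrays at 0 h, 4 at 9 h and 5 at 18 h. All 3 groups consisted of wild-type virgin females whose whole bodies were extracted for total RNA, and they differed only in the hours of desiccation. The series crossed 4 populations, agria or organ pipe cactus food and 3 times into 24 groups of 3 to 5 arrays. It holds no flies kept for 9 or 18 h with water, so desiccation, hours without food and hour of day cannot be told apart. The age of the flies and the number of flies in an extract are not given in the labels, and the stock number there differs with every array, so it does not identify a stock.

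Insects lose water through the cuticle, through the open spiracles during breathing, and by excretion, and a desiccating fly draws on its body water and on stored glycogen and lipid. Drosophila mojavensis lives in hot deserts and breeds in rotting columnar cacti. Organ pipe cactus is its main host on the Sonoran mainland and agria its main host in Baja California, so the course describes mainland flies on the food of the other region.

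Each transcript has a log2 level on each array, computed by the authors with RMA, a method that corrects background, equalises arrays and merges the probes of a transcript. All 14528 transcripts of the table were tested and none was removed for a low level. Levels in the table ran from 4.52 to 15.6, and how far a dim transcript lay above background was not known. Called transcripts are those whose adjusted p was under 0.05 in limma's fit of all 24 groups, and errors after a difference are standard errors (SE) of that fit. The labels do not say whether replicates are separate cultures or extracts, so the p-values measure the spread between these arrays, which may be technical. In whole bodies, fewer cells of a type and less RNA per cell cannot be told apart. Transcripts carry FlyBase identifiers that the gene table used here does not pair with genes. No gene, pathway or protein is therefore named, and the labelled tissue could not be checked against marker genes.

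Some arrays stood apart from the others of their group. The standard deviation (SD) of the log2 levels over an array averaged 1.982 ± 0.0588 (SD, n = 4) at 0 h, 1.896 ± 0.0539 (n = 4) at 9 h and 1.914 ± 0.0471 (n = 5) at 18 h. The change from 0 h was -0.0856 at 9 h (two-sided exact permutation p = 0.0857) and -0.0679 at 18 h (exact p = 0.111), and both were 0.179 after Benjamini-Hochberg adjustment over 9 tests of array properties. This spread followed a shared axis, the main direction in which arrays of 1 group differed across the series. That axis held 41.8% of the within-group variance, and an array's score on it correlated with the array's SD at r = 0.966 over 95 arrays, a description of arrays that share the fit. At 0 h the scores of replicates 1 to 4 were 11.1, 47.3, -10.4 and 28. At 9 h they were 0.162, -25.1, -55.0 and -20.2, and at 18 h the 5 arrays had -11.8, -43.1, -2.0, 20.4 and -13.1. Replicate 3 at 9 h was the lowest of the 13 and replicate 2 at 0 h the highest, and the 0 h and 9 h scores overlapped only through replicate 3 at 0 h and replicate 1 at 9 h (exact p = 0.0571, the smallest possible being 0.0286). By root mean square distance to the mean 0, 9 and 18 h profiles of the other 7 courses, 3 of the 4 arrays at 0 h, 2 of the 4 at 9 h and 4 of the 5 at 18 h lay nearest to their own time. Replicate 3 at 0 h lay nearest to 9 h, replicates 2 and 3 at 9 h nearest to 18 h, and replicate 4 at 18 h nearest to 0 h.

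**Figure D1:**
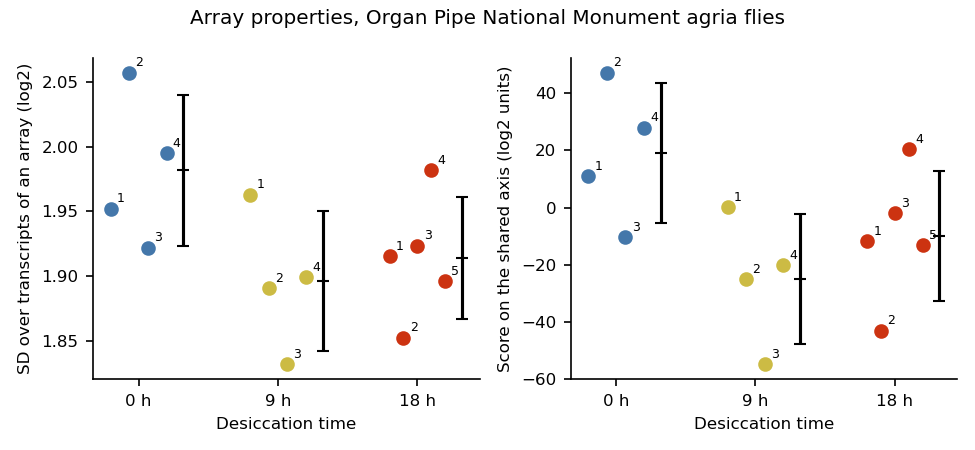
Array properties of the 13 agria arrays by desiccation time. Left, SD of the log2 levels over the transcripts of an array. Right, score on the shared axis, in log2 units. Points are arrays labelled with their replicate number, and bars are the mean ± SD of a group. The 9 h arrays reach from 0.162 down to -55.0 on the axis, and the 0 h arrays from -10.4 up to 47.3.

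The first comparison asks which transcripts had changed after 9 h of desiccation. Differences of modest size were spread over a large part of the transcripts: 6355 were called (43.7% of all tested), 2587 higher and 3768 lower at 9 h. Among the called, 1302 rose and 984 fell by at least 1.5-fold, and 182 rose and 139 fell by at least 2-fold. The median absolute difference over all transcripts was 0.28 and the median SE 0.14 on the log2 scale. In 830 of the transcripts called higher and 2539 of those called lower, the 0 h and 9 h arrays did not overlap. Here and in the later comparisons, overlap was judged on the arrays that made the calls. Its share over all transcripts is not given, so these counts only describe the calls. The transcripts named for a comparison of 2 times were picked among called ones without overlap. Their separation follows from that choice and is a description only. Among called transcripts without overlap, the largest rises and falls came to about 1.5 on the log2 scale, well below the largest such changes later in the course.

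FBtr0161192 was one of the 2 called transcripts without overlap that fell furthest by 9 h. Its levels were 10.37, 10.35, 10.12 and 10.67 at 0 h and 9.47, 8.62, 8.31 and 9.12 at 9 h. All 4 arrays at 9 h lay below all 4 at 0 h, as the choice required, and the difference was -1.50 ± 0.262 (adjusted p = 3.95e-05 by limma). FBtr0165465 stood at 9.15, 9.77, 8.74 and 9.59 at 0 h and at 8.27, 7.81, 7.11 and 8.05 at 9 h, with a difference of -1.50 ± 0.248 (adjusted p = 2.10e-05 by limma). The groups did not overlap here either, as the choice required, although the gap between them was narrower than in FBtr0161192 or in the later changes. At 18 h both transcripts were still low, with means of 8.97 and 8.08.

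FBtr0172555 and FBtr0165285 rose furthest by 9 h among called transcripts without overlap. FBtr0172555 had 11.24, 9.73, 11.72 and 10.28 at 0 h and 11.85, 12.24, 12.88 and 11.82 at 9 h, a rise of 1.46 ± 0.381 (adjusted p = 0.00253 by limma). FBtr0165285 had 10.56, 9.25, 11.01 and 9.89 at 0 h and 11.16, 11.54, 12.19 and 11.49 at 9 h, a rise of 1.42 ± 0.362 (adjusted p = 0.00206 by limma). In both, the groups were parted by a narrow gap, and the 0 h arrays spread over a wider range than the difference between the means of the 2 times. Replicate 2, with the highest axis score, was the lowest at 0 h, and replicate 3 at 9 h, with the lowest score, was the highest of all 8.

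The size of the 9 h response moved with the shared axis and with single arrays. With each array's score as a covariate 1163 transcripts were called, without replicate 3 at 9 h 2707, without replicate 2 at 0 h 3149, and in a fit of the 13 arrays alone 2581. With the score in the fit, the rises of FBtr0172555 and FBtr0165285 were 0.28 (adjusted p = 0.419, against 1.63e-05 to 0.419 over all alternatives) and 0.19 (adjusted p = 0.284, against 8.88e-08 to 0.284), and the falls of FBtr0161192 and FBtr0165465 were -0.86 and -0.74, both still called. The split of calls moved with scaling: 40.7% of them were higher as deposited and 55.9% with each array centred on its median. How much of the 9 h difference belongs to the axis and how much to desiccation was not tested.

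A smaller body of 9 h changes did not hang on any single array. Of the 6355 called transcripts, 2248 were called in the same direction in each of the 8 fits that left out an array of either time, 529 higher and 1719 lower. Of these, 900 were also called with the axis score in the fit, 296 higher and 604 lower. With median centring, quantile normalization, array weights and the fit of the 13 arrays alone required as well, 835 were left, 251 higher and 584 lower. Among the 835, 13 rose and 78 fell by at least 2-fold.

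The 9 h differences ran with the level of a transcript. When transcripts were divided by their mean level into 5 classes of equal size, the median difference was 0.19 in the dimmest class and 0.27 in the next, then -0.19, -0.18 and -0.06 in the brighter classes. In the second class 1013 transcripts were called higher and 456 lower, and in the fourth 271 were called higher and 1201 lower. Changes of at least 2-fold lay elsewhere on the scale: 113 of the 182 rises were in the middle class, and 55 of the 139 falls in the second and 66 in the middle class.

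**Figure D2:**
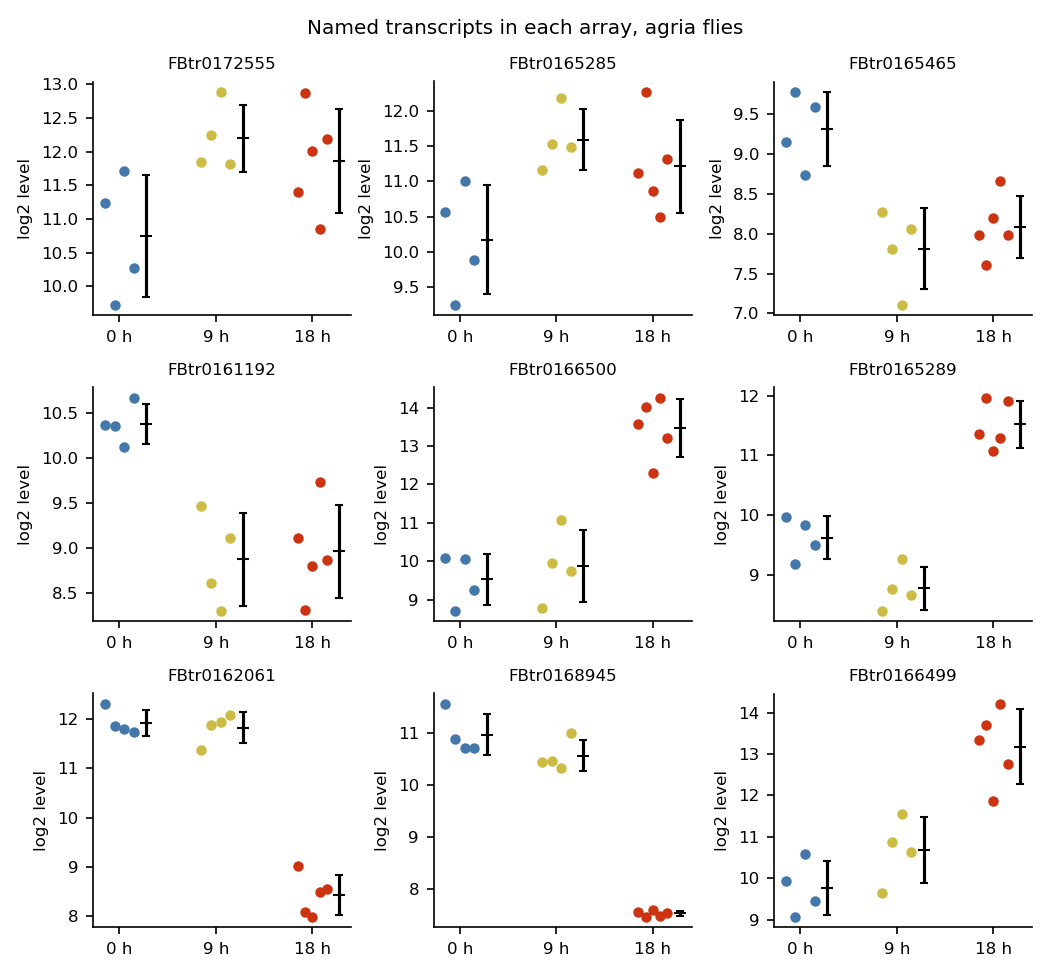
Log2 levels, in the 13 agria arrays at 0, 9 and 18 h, of the transcripts named for the comparisons of 2 times, 1 panel each. They have the largest changes among called transcripts without overlap. Points are arrays and bars the mean ± SD of a group. FBtr0172555, FBtr0165285, FBtr0165465 and FBtr0161192 move between 0 and 9 h, while the other 5 transcripts move mainly between 9 and 18 h.

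The second comparison covers the later interval, 9 to 18 h, and shares the 9 h arrays with the first. Far fewer transcripts were called, 738 (5.08% of all tested), of which 659 rose and 79 fell. By at least 2-fold 56 transcripts rose and 13 fell, fewer than the 182 and 139 of the first 9 h. The largest changes went further and passed 3 on the log2 scale. The median absolute difference over all transcripts was 0.13. Arrays of the 2 times did not overlap in 477 of the transcripts called higher and 62 of those called lower.

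FBtr0162061 fell furthest in this interval among called transcripts without overlap. Its 4 arrays at 9 h read 11.38, 11.89, 11.95 and 12.10, and its 5 arrays at 18 h read 9.02, 8.08, 7.99, 8.50 and 8.56. The times were over 2 log2 units apart with no array between them, and the difference was -3.40 ± 0.519 (adjusted p = 2.75e-06 by limma). FBtr0168945 went from 10.45, 10.47, 10.33 and 11.01 to 7.56, 7.47, 7.61, 7.50 and 7.55, a difference of -3.03 ± 0.624 (adjusted p = 0.000694 by limma). Its 18 h arrays were far tighter (SD 0.0536, n = 5) than its 9 h arrays (SD 0.301, n = 4). Neither transcript was called in the first 9 h, with differences of -0.10 ± 0.548 and -0.41 ± 0.657: the levels at 0 h were 12.31, 11.87, 11.79 and 11.74 for FBtr0162061 and 11.56, 10.89, 10.72 and 10.72 for FBtr0168945.

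FBtr0166500 and FBtr0165289 rose furthest between 9 and 18 h among called transcripts without overlap. FBtr0166500 had 8.78, 9.94, 11.07 and 9.74 at 9 h and 13.57, 14.02, 12.31, 14.25 and 13.21 at 18 h. All 5 later arrays lay above all 4 earlier ones, as the choice required. The rise of 3.59 ± 0.557 (adjusted p = 3.98e-06 by limma) equals 12.0-fold on the linear scale. FBtr0165289 had 8.40, 8.77, 9.27 and 8.67 at 9 h and 11.36, 11.96, 11.08, 11.29 and 11.91 at 18 h, a rise of 2.74 ± 0.512 (adjusted p = 0.000139 by limma), again without overlap by the choice. At 0 h it read 9.98, 9.19, 9.83 and 9.51, so that 9 h was the lowest of its 3 times.

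The number of calls between 9 and 18 h depended on single arrays, while these 4 transcripts were called in each of 18 alternative fits. The count was 333 without replicate 3 at 9 h, 455 without replicate 5 at 18 h and 339 in a fit of the 13 arrays alone. It rose to 2860 with array weights. The share of calls that were higher was 89.3% as deposited, 75.3% after quantile normalization, 60.6% with array weights and 55.9% with each array centred on its median. In the same direction in all 9 fits that left out an array of either time, 271 were called, 239 higher and 32 lower. All 271 were also called with the axis score in the fit, and in 238 of them, 213 higher and 25 lower, the other 4 settings gave the same call; 46 of the rises and 12 of the falls were at least 2-fold.

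The third comparison takes the whole course, 18 h against 0 h, and shares arrays with both others. It called 5513 transcripts (37.9% of all tested), 2051 higher and 3462 lower. By at least 1.5-fold 766 rose and 801 fell, and by at least 2-fold 123 rose and 110 fell. The arrays of the 2 times did not overlap in 1181 of the transcripts called higher and 2148 of those called lower. The median difference of the second-dimmest level class was 0.20 and that of the second-brightest -0.17. The called counts in those classes were 289 higher and 250 lower against 473 higher and 1220 lower.

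Among called transcripts without overlap, the whole-course falls were led by those that dropped late. FBtr0162061 differed by -3.50 ± 0.519 (adjusted p = 2.11e-07 by limma) and FBtr0168945 by -3.44 ± 0.624 (adjusted p = 1.16e-05 by limma). In both, every 18 h array lay below every 0 h array, as the choice required. With the 0 h arrays of the organ pipe cactus flies of the same population as the baseline, these falls were -2.43 and -2.15, both still called. FBtr0166500 and FBtr0166499 rose furthest of those without overlap, by 3.94 ± 0.557 (adjusted p = 6.38e-08 by limma) and 3.41 ± 0.510 (adjusted p = 2.30e-07 by limma), or 15.4-fold and 10.7-fold. FBtr0166500 had 10.09, 8.71, 10.06 and 9.26 at 0 h, and FBtr0166499 went from 9.93, 9.07, 10.58 and 9.45 at 0 h through 9.64, 10.87, 11.56 and 10.63 at 9 h to 13.34, 13.70, 11.86, 14.21 and 12.76 at 18 h. The 0 h and 18 h arrays were well apart in both, and the later rise accounted for most of the change.

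These 2 rises depended on which 0 h arrays were taken as the start. With the 0 h arrays of the organ pipe cactus flies as the baseline, FBtr0166500 differed by -0.20 (adjusted p = 0.786, against 2.60e-08 to 0.786 over all alternatives) and FBtr0166499 by -0.37 (adjusted p = 0.572, against 8.65e-08 to 0.572). The 18 h means were 13.5 on agria and 13.8 on organ pipe cactus for FBtr0166500, and 13.2 and 13.5 for FBtr0166499, so the foods differed mainly in the 0 h levels.

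Whole-course calls were less dependent on single arrays than those of the 9 h comparison. Leaving out 1 array at a time gave 4162 to 6623 calls, and 3571 transcripts were called in the same direction in each of these 9 fits, 1173 higher and 2398 lower. With the axis score in the fit 3379 of them were also called, and in 3110, 1091 higher and 2019 lower, the other 4 settings gave the same call. These included 112 of the 123 rises and 107 of the 110 falls of at least 2-fold. In a fit of the 13 arrays alone 3632 transcripts were called.

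A single contrast set 9 h against the mean of 0 h and 18 h, and a high or low value of it can come from either interval. It called 1544 transcripts (10.6% of all tested), 348 higher and 1196 lower at 9 h than that mean, of which 5 and 13 were at least 2-fold. This split moved with scaling: after median centring of each array 542 were higher and 543 lower, and after quantile normalization 505 and 758. The lowest values were those of FBtr0163647, at -1.96 ± 0.492 (adjusted p = 0.0129 by limma), and FBtr0165289, at -1.80 ± 0.459 (adjusted p = 0.0141 by limma). FBtr0163647 read 11.78, 10.76, 11.76 and 11.22 at 0 h, 9.20, 10.05, 11.24 and 9.88 at 9 h and 12.77, 12.86, 12.43, 12.55 and 13.08 at 18 h. Replicate 3 at 9 h overlapped with the 0 h arrays, and all 5 arrays at 18 h lay above the rest.

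The highest value of this contrast was 1.65 ± 0.466 (adjusted p = 0.0236 by limma) for FBtr0162061. Its 0 h and 9 h levels overlapped, so the contrast came from the fall at 18 h. FBtr0174480 followed with 1.17 ± 0.402 (adjusted p = 0.0469 by limma): its levels were 10.35, 10.58, 10.77 and 10.63 at 0 h, 10.94, 12.49, 12.47 and 11.85 at 9 h and 11.00, 11.36, 11.92, 9.77 and 10.67 at 18 h. All arrays at 9 h lay above all at 0 h, but the 18 h arrays overlapped with both.

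Few of the mid-course calls held up when arrays were changed. Without replicate 3 at 9 h 15 transcripts were called and without replicate 2 at 9 h 122, against 4046 without replicate 1 at 9 h. Without replicate 2 or 4 at 0 h the counts were 391 and 587, and without replicate 4 at 18 h 325. Without replicate 3 at 0 h or replicate 2 at 18 h they were 3413 and 3316. The axis score in the fit left 56 calls, the 13 arrays alone 23, and the organ pipe cactus baseline 613. In all 13 fits that left out an array, 12 transcripts kept their call, 6 of each direction. FBtr0163647 lost its call under 2 of 23 settings, FBtr0165289 and FBtr0162061 under 3 each, and FBtr0174480 under 13.

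The nearest course for comparison is that of the same population reared on organ pipe cactus, with 4 arrays at each time, none of them shared. The counts of called transcripts differed most in the middle of the course. The organ pipe cactus flies had 936 at 9 h (6.44% of all tested) against 6355 on agria, and 1088 between 9 and 18 h (7.49%) against 738. Over the whole course they had 5463 (37.6%) against 5513. Across the 14528 transcripts the changes of the 2 courses correlated at r = 0.542 for 9 h against 0 h, 0.169 for 18 h against 9 h and 0.887 for 18 h against 0 h, given as a description since transcripts are not independent. Over the whole course 4132 transcripts were called on both foods, all in the same direction, which is 75.0% of the agria calls and 75.6% of the organ pipe cactus calls. At 9 h 676 were called on both foods, and the 675 of them in the same direction are 10.6% of the agria calls and 72.1% of the others. Among the other 7 courses of the series the 9 h count ran from 248 to 6024. The highest of these, 41.5% of all tested, belonged to the San Quintin flies reared on organ pipe cactus, which had 519 changes of at least 2-fold against 321 in the agria flies of Organ Pipe National Monument. Their 9 h changes correlated at r = 0.839 over the transcripts, and 4035 transcripts were called in both courses, 4028 of them in the same direction. The 4028 are 63.4% of the agria calls and 66.9% of the San Quintin calls.

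**Figure D3:**
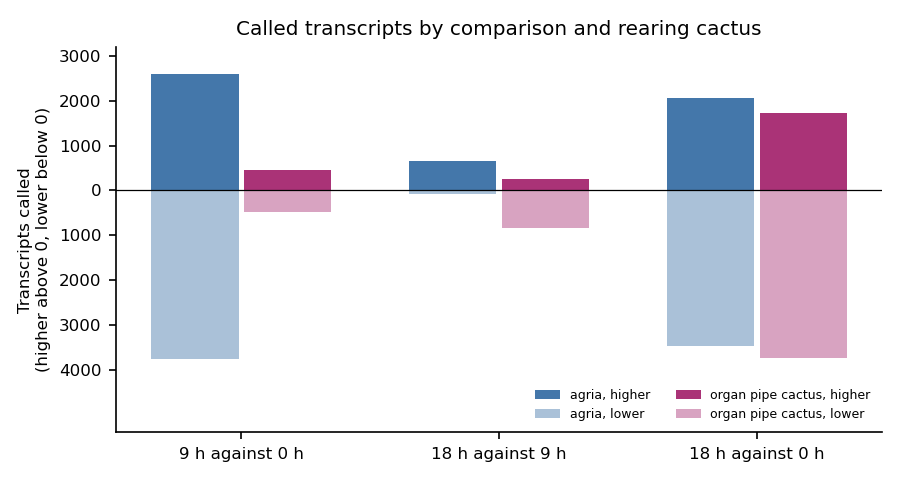
Transcripts called higher (above 0) and lower (below 0) in each comparison of 2 times, for flies of Organ Pipe National Monument reared on agria or on organ pipe cactus. The 9 h bars are far longer on agria (6355 calls against 936), and the 18 h against 0 h bars are of similar length (5513 against 5463).

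**Figure D4:**
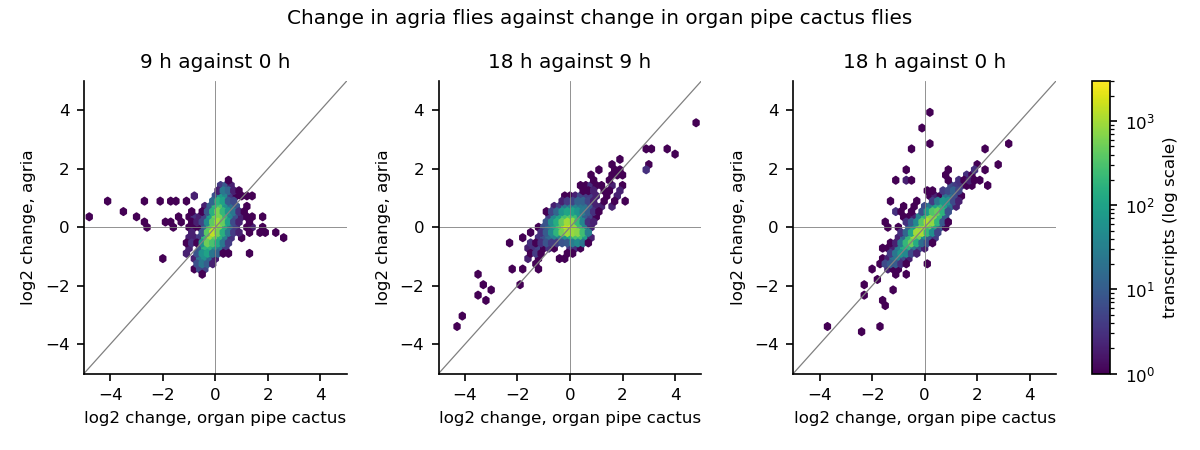
Log2 change of each of 14528 transcripts in the organ pipe cactus course (horizontal axis) and in the agria course (vertical axis) of Organ Pipe National Monument, for the 3 comparisons. Colour gives the number of transcripts in a hexagon on a log scale, and the diagonal marks equal change. The correlation is 0.542 for 9 h against 0 h, 0.169 for 18 h against 9 h and 0.887 for 18 h against 0 h.

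Counts called on each food do not test whether the foods differ, so the difference of the changes was tested directly. For 9 h against 0 h it called 8 transcripts (0.0551% of all tested), 4 in each direction, while 1826 transcripts had an unadjusted p under 0.05. FBtr0166500 had the largest difference, 5.11 ± 0.831 (adjusted p = 0.000259 by limma): on organ pipe cactus it went from 12.39, 13.98, 14.45 and 13.87 at 0 h to 8.99, 9.01, 8.93 and 8.74 at 9 h, whereas on agria it was low at both times. FBtr0166499 differed by 4.92 ± 0.760 (adjusted p = 0.000132 by limma), going on organ pipe cactus from 11.89, 13.73, 14.47 and 14.06 to 9.62, 9.63, 9.48 and 9.43. On agria its 0 h arrays were all below 11 and its change was 0.92 ± 0.537, which was not called. Both differences were called in each of 25 alternative fits.

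The changes of FBtr0168350 and FBtr0168502 were lower on agria, by -1.35 ± 0.296 and -1.15 ± 0.252 (adjusted p = 0.0426 for each by limma). FBtr0168350 stood at 11.12, 11.03, 11.09 and 11.31 at 0 h on agria and at 11.23, 10.57, 9.49 and 9.70 on organ pipe cactus. At 9 h the foods had means of 10.84 and 11.30, so the 2 groups lay furthest apart at the start. FBtr0168502 had 11.94, 11.76, 12.02 and 12.06 at 0 h on agria against 12.05, 11.31, 10.58 and 10.79. In both, replicate 1 of the organ pipe cactus flies lay with the agria arrays. These calls were lost in 16 and 21 of 25 other fits.

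Single organ pipe cactus arrays decided the number of such calls. Without replicate 1 at 0 h on organ pipe cactus 37 transcripts were called for 9 h against 0 h, 17 higher and 20 lower, and without replicate 3 at 0 h on agria 14. Without replicate 2 at 0 h or 3 at 9 h on agria, or replicate 3 at 0 h on organ pipe cactus, 2 were called, and 3 to 6 in the other fits that left out 1 array. With array weights the count was 4358 and with the axis score in the fit 2. After quantile normalization 3 were called, all higher on agria. The median SE of a difference was 0.20 on the log2 scale, and all 8 called transcripts differed by at least 2-fold.

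For the later interval the difference between foods called 2 transcripts (0.0138% of all tested), both with a higher change on agria, and 2740 had an unadjusted p under 0.05. FBtr0161575 differed by 1.17 ± 0.231 (adjusted p = 0.0246 by limma). On agria it had 8.95, 8.54, 8.42 and 8.84 at 9 h and 9.10, 8.72, 9.35, 9.29 and 9.23 at 18 h, and on organ pipe cactus it went from 9.36, 9.36, 9.26 and 9.27 to 8.71, 8.83, 8.48 and 8.37. The organ pipe cactus arrays fell without overlap, and the agria arrays were higher at 18 h with overlap. FBtr0162211 differed by 0.61 ± 0.121 (adjusted p = 0.0246 by limma), its agria means being 10.34 at 9 h and 10.57 at 18 h, against 10.68 and 10.31 on organ pipe cactus.

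Of 26 other fits, 15 lost the call of FBtr0161575 and 17 that of FBtr0162211. With each array centred on its median, which moved the median of this difference by -0.12 on the log2 scale, 1 was called higher and 1 lower, and after quantile normalization 0 were called. The number of calls was 474 without replicate 2 at 18 h on agria, 104 without replicate 1 at 9 h on agria and 1426 with array weights, and 0 with the axis score in the fit.

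Over the whole course the difference between foods called 0 transcripts in limma. The smallest adjusted p was 0.0836, and 365 transcripts were under 0.05 before adjustment. Without replicate 1 at 0 h on organ pipe cactus 11 were called, without replicate 3 at 18 h on agria 2, and with array weights 3. That a test misses its threshold does not show that the foods act alike, and the median SE of the difference was 0.19 on the log2 scale.

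The strong changes of the whole course were found in the other courses too. Of the 123 transcripts that rose at least 2-fold by 18 h, 107 were also called higher on organ pipe cactus, where 11.9% of all transcripts were, with a median change there of 1.01 against 1.26 on agria. In the means of all 7 other courses 91 of the 123 were higher at 18 h, as were 11.6% of all transcripts. Of the 110 that fell at least 2-fold, 106 were also called lower on organ pipe cactus, where 25.7% of all transcripts were, with medians of -1.12 on both foods. In the means of all 7 courses 104 were lower, against 25.6% of all transcripts. At 9 h the transcripts that changed at least 2-fold on agria changed less on organ pipe cactus. Of the 182 rises 180 and of the 139 falls 139 had the same sign there. The share of all transcripts with the same sign on both foods is not given, so nothing is read from these counts. Median changes were 0.29 and -0.45 on organ pipe cactus against 1.10 and -1.12 on agria. Called in the same direction on organ pipe cactus were 7 of the rises and 5 of the falls, close to the 3.2% and 3.24% of all transcripts. In the means of all 7 other courses 9 of the 182 were higher and 34 of the 139 lower at 9 h, against 9.19% and 12.9% of all transcripts. In the later interval 38 of the 56 rises and 13 of the 13 falls were called in the same direction on both foods, against 1.68% and 5.81% of all transcripts on organ pipe cactus.

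To show at which time the agria flies departed from the rest, their level was set against the mean of the other 7 groups at the same time. At 0 h 653 transcripts were called (4.49% of all tested), 232 higher and 421 lower in the agria flies, and the strong differences went almost all one way: 5 were higher and 56 lower by at least 2-fold. FBtr0174470 was 4.71 ± 0.463 lower (difference -4.71, adjusted p = 3.41e-12 by limma). Its 4 arrays read 8.03, 7.29, 8.30 and 7.70, where the means of the other 7 groups ran from 11.3 to 13.1. The organ pipe cactus flies of the same population had 8.68, 11.57, 12.91 and 12.09, so replicate 1 lay close to the agria arrays. FBtr0166500 differed by -4.63 ± 0.445 (adjusted p = 1.78e-12 by limma), with a mean of 9.53 against 13.6 to 14.5 in the other groups.

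FBtr0170834 and FBtr0173075 were the furthest above the other groups at 0 h. FBtr0170834 had 9.76, 9.74, 9.24 and 10.33, a difference of 1.80 ± 0.137 (adjusted p = 5.97e-17 by limma). The organ pipe cactus flies of the same population had 9.24, 9.65, 9.34 and 8.99 and so overlapped with them, while the lowest of the other 7 means was 7.60. FBtr0173075 differed by 1.61 ± 0.191 (adjusted p = 2.46e-09 by limma), and its mean was 11.2 on agria, 11.0 on organ pipe cactus and 8.98 in the lowest group. The count of calls at 0 h was 397 without replicate 2 and 355 without replicate 4, 1029 with the axis score in the fit and 2104 with array weights.

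The 56 transcripts that were at least 2-fold lower at 0 h were also set against the other flies at the later times. Their choice rests on the 0 h arrays, so their median difference of -1.65 at 0 h is a description. The choice also favours a smaller difference at later times, so no approach to the other flies is read from the values. The 9 and 18 h arrays were not used to choose them. At 9 h the median difference was -0.45, and 18 of the 56 were called lower, against 8.63% of all transcripts, and 0 higher. At 18 h it was 0.11, with 8 called lower, against 0.723% of all transcripts, and 0 higher. In the mean of the other 7 courses 47 of the 56 were lower at 9 h than at 0 h. On agria 26 of them were called higher at 18 h than at 0 h and 1 lower, where 14.1% and 23.8% of all transcripts were. The count of 47 and these calls share the 0 h arrays with the choice, so nothing is read from them.

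Array by array, the median level of the 56 was 9.07, 8.51, 9.24 and 8.72 at 0 h on agria, 8.91, 9.18, 9.51 and 9.25 at 9 h, and 9.59, 9.89, 9.11, 10.27 and 9.40 at 18 h. The 0 h arrays were all below the 23 arrays of the other 3 populations at 0 h, which ran from 10.16 to 11.70 with a median of 11.30. The 56 were chosen on these same 0 h arrays, so this separation follows from the choice and is a description only. The organ pipe cactus flies of the same population had 8.94, 10.07, 10.48 and 9.98, so replicate 1 lay among the agria arrays and the other 3 between them and most arrays of the other populations. In single transcripts, 8 of the 56 had agria 0 h arrays that overlapped with no other 0 h array of the series. That count rests on the arrays that chose the 56, and the share over all transcripts is not given, so nothing is read from it. At 18 h the 24 arrays of the other 3 populations ran from 8.91 to 9.96, and 4 of the 5 agria arrays lay within that range.

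**Figure D5:**
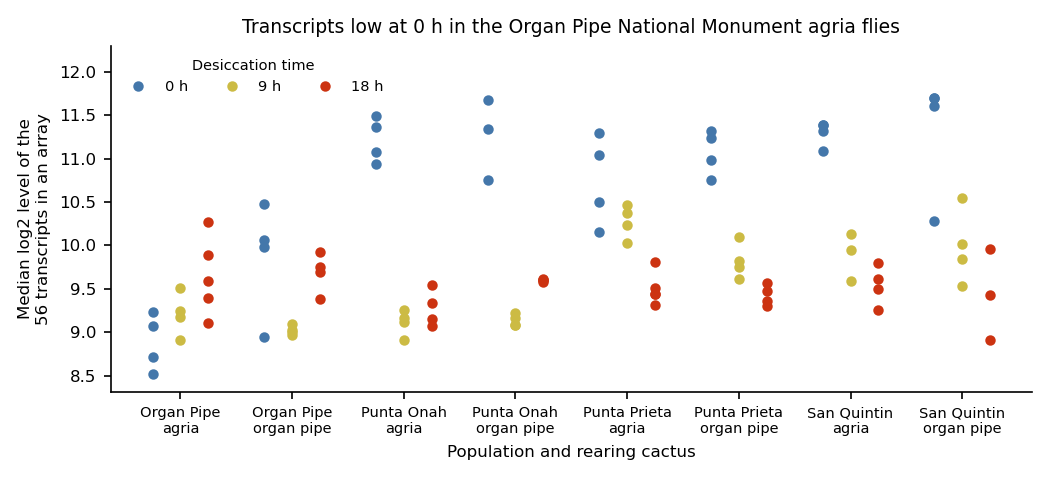
Median log2 level, in each of the 95 arrays, of the 56 transcripts that were at least 2-fold lower at 0 h in the agria flies of Organ Pipe National Monument than in the mean of the other 7 groups. Points are arrays, coloured by desiccation time and placed by population and rearing cactus. The 0 h arrays of the agria flies lie at 8.51 to 9.24, and those of the other 3 populations at 10.16 to 11.70. The 56 were chosen on the 0 h arrays, so the 0 h separation follows from the choice.

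At 9 h 1744 transcripts were called against the other 7 groups (12% of all tested), 490 higher and 1254 lower, with 16 and 37 by at least 2-fold. FBtr0167058 was lower by far, at 10.08, 10.13, 10.88 and 10.32 against group means of 12.2 to 13.8 (difference -2.69 ± 0.432, adjusted p = 8.24e-06 by limma). FBtr0162063 read 7.74, 7.67, 8.04 and 7.86 against group means of 8.72 to 12.2 (difference -2.64 ± 0.362, adjusted p = 2.52e-07 by limma). For FBtr0162063 the organ pipe cactus flies of the same population had 8.08, 10.08, 7.90 and 10.11, so the arrays of the foods overlapped. FBtr0173075 and FBtr0164865 were higher, by 1.51 ± 0.191 and 1.37 ± 0.223 (adjusted p = 5.84e-08 and 9.77e-06 by limma). The organ pipe cactus flies of the same population were high as well, with means of 10.9 and 11.4 beside 11.4 and 11.9 on agria, and for FBtr0164865 another group reached 11.5. With each array centred on its median 781 transcripts were called higher and 846 lower, and after quantile normalization 844 and 1057. The count fell to 308 without replicate 3 at 9 h and 676 without replicate 2, rose to 3601 without replicate 1, and was 720 with the axis score in the fit.

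At 18 h the agria flies were closest to the rest, with 354 transcripts called (2.44% of all tested), 249 higher and 105 lower, of which 1 and 12 were at least 2-fold. FBtr0171700 was higher by 1.03 ± 0.118 (adjusted p = 2.26e-09 by limma), with means of 8.92 on agria and 8.86 on organ pipe cactus, and 7.48 in the lowest group. FBtr0173075 was higher by 0.99 ± 0.173 (adjusted p = 0.000104 by limma), with means of 10.9 on agria and 11.1 on organ pipe cactus. FBtr0162061 was lower by far in both courses of this population, with means of 8.43 and 8.46 against an average of 10.5 over the 7 other groups, the organ pipe cactus flies included (difference -2.02 ± 0.377, adjusted p = 0.000262 by limma). FBtr0164933 was called lower (adjusted p = 2.26e-09 by limma), with a mean of 5.06 in both courses of this population against an average of 6.81 over the 7 other groups. Its agria arrays at 4.84 to 5.20 lay close to the lowest value of the table, so no size of the difference is given. Without replicate 1, 3 or 5 at 18 h the count of calls was 229, 167 and 209. With each array centred on its median 188 were higher and 182 lower, and after quantile normalization 213 and 155.

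Changes measured from 0 h share the 0 h arrays with the levels above. Against the mean of the other 7 courses, the change at 9 h differed in 156 transcripts (1.07% of all tested), 56 higher and 100 lower on agria. FBtr0166499 and FBtr0174470 had the largest positive differences, 4.20 ± 0.576 and 4.19 ± 0.654 (adjusted p = 3.65e-06 and 2.79e-05 by limma). FBtr0174470 read 8.23, 8.37, 8.61 and 8.31 at 9 h, close to its 0 h levels, while in the mean of the other 7 courses it dropped from 12.5 to 8.90. The negative differences had another course: FBtr0163932 went from a mean of 9.33 to 8.44 on agria and from 9.60 to 10.8 in the others (difference -2.11 ± 0.383, adjusted p = 0.000379 by limma). FBtr0168945 started at a similar mean, 11.0 on agria and 10.8 in the others, and stood at 10.6 and 13.0 at 9 h (difference -2.61 ± 0.705, adjusted p = 0.0456 by limma), a call lost in 10 of 16 other fits.

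That count of 156 was the least settled of the comparisons with the other courses. It was 52 without replicate 2 at 0 h or without replicate 3 at 9 h, 54 and 87 without replicates 4 and 1 at 0 h, and 64 without replicate 2 at 9 h. It was 831 without replicate 3 at 0 h and 1138 without replicate 1 at 9 h. With the axis score in the fit 74 were called, 52 higher and 22 lower. The excess of lower calls was absent in other settings too: after median centring of each array 64 were higher and 61 lower, with 62 and 52 after quantile normalization, 35 and 17 without replicate 2 at 0 h, and 38 and 14 without replicate 3 at 9 h.

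The whole-course change differed from the mean of the other 7 in 188 transcripts (1.29% of all tested), 172 higher and 16 lower on agria. FBtr0174470 differed by 5.83 ± 0.625 (adjusted p = 2.69e-10 by limma), rising on agria to 10.77, 11.40, 8.64, 12.15 and 9.74 at 18 h while the mean of the other courses dropped to 9.42. The organ pipe cactus flies of the same population had an 18 h mean of 10.8, beside 10.5 on agria, so the high 18 h level was shared by both foods. On agria the 18 h arrays of FBtr0174470 were far more spread than those at 0 or 9 h, and replicate 3 was the lowest, close to the highest 9 h array. FBtr0166500 differed by 5.47 ± 0.601 (adjusted p = 4.82e-10 by limma). FBtr0168259 went the other way, with 13.48, 13.13, 13.29 and 13.08 at 0 h and 11.08, 10.24, 10.22, 10.20 and 11.25 at 18 h (difference -1.65 ± 0.388, adjusted p = 0.00892 by limma), and FBtr0163649 by -1.06 ± 0.282 (adjusted p = 0.0296 by limma), a call lost in 8 of 17 other fits. In the mean of the other courses FBtr0168259 went from 13.1 to 12.1. In the organ pipe cactus flies of the same population it went from 12.1 to 10.6, and its 18 h mean on agria was also 10.6. Without replicate 3 at 0 h, or replicate 3 or 5 at 18 h, the count was 119, 116 and 122. The share of calls that were higher was 91.5% as deposited and 73.3% with each array centred on its median.

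Between 9 and 18 h the change differed from the mean of the other 7 courses in 77 transcripts (0.53% of all tested), 76 higher and 1 lower on agria. FBtr0162063 led, by 2.52 ± 0.489 (adjusted p = 0.00379 by limma). Its means were 7.63, 7.83 and 7.57 at the 3 times on agria, while in the mean of the others it fell from 10.5 to 7.70. FBtr0175027 rose from 7.86, 8.58, 9.29 and 8.69 at 9 h to 11.16, 11.14, 9.03, 12.26 and 9.54 at 18 h, with replicate 3 at 18 h among the 9 h arrays (difference 2.14 ± 0.556, adjusted p = 0.0483 by limma). The organ pipe cactus flies of the same population rose alike, from a mean of 8.84 to 10.7, beside 8.60 to 10.6 on agria. FBtr0174384 was the 1 with a lower change (-0.25 ± 0.0601, adjusted p = 0.0321 by limma). The calls of the last 2 were lost in 9 and 8 of 17 other fits.

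The 77 also depended on the arrays used. Without replicate 1, 2 or 3 at 9 h the count was 347, 30 and 18. Without replicate 2, 3, 4 or 5 at 18 h it was 318, 36, 30 and 26. With each array centred on its median it was 24.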

How the data were processed

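Total RNA of whole virgin females was labelled with Cy3 and hybridised to 1-colour NimbleGen arrays, 1 array per sample. The deposited table holds the authors' log2 values, 1 per transcript and array (14528 transcripts, 95 arrays), made with RMA per the submitters' processing notes; the version and probe filters are not given in the sources used here. All columns were matched to samples by their labels, and 0 were left over. No pair of arrays held identical values, and the number of arrays limits the precision. None of the 4 arrays that a deposited note gives as a second order of the design belongs to the agria course.

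From these values limma 3.58.1 in R 4.3.3 fitted 24 group means (71 residual degrees of freedom, no covariate, block or filter). Comparisons are contrasts of group means with equal weights, the tests are two-sided and moderated, and p-values were adjusted over all 14528 transcripts by the Benjamini-Hochberg method. The fit was tested on simulated data for 18 h against 0 h: with residuals drawn as whole arrays, 64.2% of transcripts changed by 0.5 on the log2 scale, 98.5% of those changed by 1 and 100% of those changed by 2 were recovered, and 3 unchanged transcripts were called. Only 67, 67 and 66 transcripts were changed by these sizes, and the residual arrays were drawn at random over all groups. The simulation therefore cannot show how many calls are false where axis scores move with time, and the 9 h comparison was not simulated. Array properties were compared with exact permutation tests.

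Named transcripts are the 2 largest rises and 2 largest falls among those called in each comparison, for comparisons of 2 times only where arrays of the times do not overlap. The comparisons, rule and alternatives were chosen with earlier results of these data known. None of the 14528 identifiers occurs in the gene table (15130 genes), so no gene list and no sequence was used. Alternatives were 2 scalings, array weights, a variance trend, leaving out the dimmest 20%, the second-order arrays or each array, the shared axis as a covariate, a replicate block, and fits of fewer arrays; leaving out single organ pipe cactus arrays was added after seeing the data.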

Additional observations from a re-analysis of the deposited data

Results flagged for a closer look

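Among 87 groups of values examined, 28 named transcripts and the array SD at each of 3 times, 3 held an array far from the others of its group, judged by its gap to the nearest array against the group's range. Chance marks about 1 in 20 such groups. All 3 were at 9 h: FBtr0168350 at 10.73 in replicate 3, where the nearest array had 10.86, FBtr0162211 at 10.48 in replicate 1 (nearest 10.31), and FBtr0163649 at 13.72 in replicate 1 (nearest 13.83).

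Some changes differed between the agria course and other courses by a test of the difference in limma. Against the organ pipe cactus course of the same population, the change at 9 h differed by 5.11 for FBtr0166500, 4.92 for FBtr0166499, -1.35 for FBtr0168350 and -1.15 for FBtr0168502, and the change between 9 and 18 h by 1.17 for FBtr0161575 and 0.61 for FBtr0162211. Against the mean of the other 7 courses, the change at 9 h differed by 4.20 for FBtr0166499, 4.19 for FBtr0174470, -2.61 for FBtr0168945 and -2.11 for FBtr0163932. The change between 9 and 18 h differed by 2.52 for FBtr0162063, 2.14 for FBtr0175027 and -0.25 for FBtr0174384. The whole-course change differed by 5.83 for FBtr0174470, 5.47 for FBtr0166500, -1.65 for FBtr0168259 and -1.06 for FBtr0163649.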

How the results depend on the processing

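Among named transcripts and alternatives, 663 values kept direction and call, 127 lost the call and 2 reversed: with the organ pipe cactus 0 h arrays as baseline, FBtr0166500 and FBtr0166499 changed by -0.20 and -0.37 over 18 h. Counts moved as follows (9 h against 0 h, 18 h against 9 h, 18 h against 0 h, where given). In the agria course, a fit of its arrays alone gave 2581, 339 and 3632, the shared axis removed gave 1163 at 9 h, and array weights gave 2860 between 9 and 18 h. Leaving out 1 array gave 2707 to 7294, 333 to 999 and 4162 to 6623. The mid-course contrast gave 23 from these arrays alone, 6635 with array weights, 56 with the axis removed, 613 on the other baseline and 15 to 4046 with 1 array left out. Against the organ pipe cactus course, array weights gave 4358, 1426 and 3. The first count was 3 with its groups alone, 3 with quantile normalization, 2 with the axis removed, and 2 to 14 or 2 to 37 without 1 agria or organ pipe cactus array. The second was 0 with its groups alone, quantile normalization, a variance trend or the axis removed, and 0 to 474 or 0 to 15 without 1 array; the third was 0 to 2 or 0 to 11. Against the other 7 courses, array weights gave 5039, 1520 and 827, and the axis removed 74, 44 and 308. Median centring gave 24 and quantile normalization 39 between 9 and 18 h. Leaving out 1 array gave 52 to 1138, 18 to 347 and 116 to 247. Levels at 0, 9 and 18 h gave 2104, 6828 and 852 with array weights, 1029, 720 and 630 with the axis removed, and 355 to 514, 308 to 3601 and 167 to 380 without 1 array. The change of array SD by 18 h was -0.0686 (exact p = 0.0397) without the dimmest 20%, and -0.0878 to -0.0427 without 1 array. The cause was not tested, except that fits of fewer arrays hold fewer degrees of freedom. Of 12 same-numbered pairs of replicates, 3 correlated above 0.1, and 3 matched best with their own number. So few pairs cannot show whether replicate numbers mark a shared batch or culture. With the replicate block, calls were 6084, 485 and 4590 in the course and 1065 mid-course; 10, 0 and 0 against the organ pipe cactus course; 98, 20 and 102 against the other 7; and 388, 1064 and 310 for the levels. How far dim transcripts lay above background limits their changes and was not known.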
